A study of Mus musculus with 12 samples.

Results

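The 53 genes described here encode the machinery of mitosis and of the spindle checkpoint in mouse germinal centre B cells. They were taken as a named list: cyclins, mitotic kinases, checkpoint proteins, kinetochore and spindle components, cytokinesis factors and condensins, with the kinesins of the Kif series left out (Cenpe, itself a kinesin, is included). All 53 had a probe set carrying their symbol alone, out of 19938 genes with such a probe set, and all 53 were among the 11206 genes bright enough to be tested. The list was given by gene name, and where a gene had several such probe sets the one with the highest mean over the 12 arrays was used. In 9 role groups they cover entry into mitosis (6 genes), mitotic and centrosome kinases (5), the spindle assembly checkpoint (5), the anaphase-promoting complex and sister separation (7), the chromosomal passenger complex (4), centromere and kinetochore (8), spindle microtubules (7), central spindle and cytokinesis (4) and chromosome structure (7).

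Entry into mitosis is driven by Cdk1 bound to A- and B-type cyclins. The spindle assembly checkpoint holds the anaphase-promoting complex (APC/C) back until every kinetochore is attached to microtubules, after which Cdc20 and Ube2c let the complex destroy securin and the mitotic cyclins. In the germinal centre, B cells divide and mutate their receptors in the dark zone (DZ) and are selected for antigen binding in the light zone (LZ), from which some return to the dark zone to divide again. The messenger RNAs of many mitotic genes accumulate late in the cell cycle, through promoters with CCAAT boxes and a cell cycle homology element (CHR) near the start site.

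All cells were donor B cells from SwHEL mice, whose B cell receptor binds hen egg lysozyme. The donor cells carried CD45.1 and had been transferred into C57BL/6J recipients (CD45.2), which were immunized with sheep red blood cells carrying the lysozyme mutant HEL3x. On day 10, donor germinal centre cells of the spleen (CD45.1+, CD45.2-, IgG1+, CD38 low, samples labelled female) were sorted by zone and affinity. LZ cells were CD86 high and CXCR4 low, and DZ cells CXCR4 high and CD86 low, each of high or low affinity. All 4 groups share the starting SwHEL receptor, which can mutate in the germinal centre, the antigen and the day. How the affinity gate was drawn is not stated in the labels, nor how many animals gave a sample or whether replicates are different animals. The p-values therefore speak to the spread among these arrays, and that spread may be technical. Each of the 4 groups, called DZ high, DZ low, LZ high and LZ low below, was measured on 3 one-colour arrays with amplified, labelled cDNA, which makes 12 in all. Each array's description ends in 1 of 3 codes, and each code is shared by 1 array of every group; these matched sets 1, 2 and 3 are the order in which the 3 values of a group are given. The codes have the form of a date, but what they mark is not stated.

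Values are log2 RMA expression values, so that a difference of 1 is a doubling, and differences carry their standard error (SE). The genes used for the sort followed it: the log2 difference between LZ and DZ was 1.13 ± 0.11 for Cd86, which was called. It was -0.63 ± 0.18 for Cxcr4, which was called with the replicate block. Cd83, a zone marker that was not used for the sort, had 1.6 ± 0.14 and was called. Germinal centre B cell markers (7 measured) averaged 9.94 to 10.40 over the arrays and all 7 lay at or above the array median on each. Markers of macrophages (10 genes) averaged 4.99 to 5.70, with 1 to 3 of the 10 at or above the array median. T cell markers (8 measured) averaged 4.87 to 6.24, with 1 to 6 of the 8 at or above it. Granulocyte markers (9) averaged 5.29 to 7.05, with 2 to 7 of the 9 at or above it.

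Promoters are shown for the 7 genes called lower in LZ with the replicate block described below (3 of them also without it), so that the motifs named above can be seen in place. The stretches are the 120 bases before the annotated start, from RefSeq promoters on build GRCm38.p6, and capitals mark the motifs that were searched on both strands. These were the CCAAT box, which appears as ATTGG where it lies on the opposite strand, and 3 hexamers of the CHR type. The hexamers were the usual form TTTGAA, which appears as TTCAAA on the opposite strand, a variant form spelled TTTAAA, which is its own reverse complement, and another variant form spelled TTCGAA, which is likewise its own.

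Ccnb2 (chr9:70421555-70421674, minus strand): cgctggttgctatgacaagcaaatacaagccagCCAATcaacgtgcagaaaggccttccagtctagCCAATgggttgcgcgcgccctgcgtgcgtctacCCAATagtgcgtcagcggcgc
Cdc20 (chr4:118437344-118437463, minus strand): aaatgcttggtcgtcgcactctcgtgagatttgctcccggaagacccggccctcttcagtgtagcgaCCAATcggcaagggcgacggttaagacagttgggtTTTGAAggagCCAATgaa
Cdca8 (chr4:124936918-124937037, minus strand): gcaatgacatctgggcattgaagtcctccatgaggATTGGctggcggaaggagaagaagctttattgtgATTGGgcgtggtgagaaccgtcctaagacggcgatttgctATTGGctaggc
Cenpa (chr5:30666766-30666885, plus strand): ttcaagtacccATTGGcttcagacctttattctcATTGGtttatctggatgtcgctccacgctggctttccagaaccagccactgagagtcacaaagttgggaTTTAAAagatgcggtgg
Cenpf (chr1:189688087-189688206, minus strand): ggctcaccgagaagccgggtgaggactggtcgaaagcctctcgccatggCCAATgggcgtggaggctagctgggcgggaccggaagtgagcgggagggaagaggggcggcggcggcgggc
Ube2c (chr2:164769809-164769928, plus strand): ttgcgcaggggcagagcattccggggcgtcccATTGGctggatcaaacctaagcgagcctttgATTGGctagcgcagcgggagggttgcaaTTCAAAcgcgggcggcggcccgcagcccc
Aurka (chr2:172370571-172370690, minus strand): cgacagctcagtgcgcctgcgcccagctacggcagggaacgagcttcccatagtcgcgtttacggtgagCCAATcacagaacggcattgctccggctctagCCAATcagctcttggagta

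In Ccnb2, CCAAT began 87, 54 and 21 bases before the start, so that neighbouring boxes started 33 bases apart. From start to start, the boxes of Ube2c were 31 bases apart, those of Aurka 32, those of Cdca8 34 and 40, those of Cdc20 45 and those of Cenpa 23. Cdc20 held the usual hexamer 18 bases before its start, Cenpa the variant TTTAAA at 17 and Ube2c the usual hexamer on the opposite strand at 29. Cenpf held 1 CCAAT box in this stretch, 71 bases before its start, and no hexamer. The stretches end at the start, and the usual hexamer also lay just after it in several genes. It began at base 3 after the start in Cenpf, 5 in Ccnb2, 14 in Cdca8, 17 in Cenpa and 33 in Aurka.

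RefSeq promoters could be matched for 45 of the 53 genes. Over the window from 250 bases before to 50 after the start, on both strands, 38 of the 45 (84.4%) held at least 1 of the 3 hexamers, against 23.6% of the 8970 tested genes with a promoter and 31.9% of all 27025 promoters. The usual form was in 32 of the 45 (71.1%, against 14% of the tested genes), and the variant TTTAAA was in 11 (24.4%, against 10.1%). CCAAT was in 35 of the 45 (77.8%), against 42.2% of the tested genes, and 24 (53.3%) held at least 2 copies, against 16.4%. Both kinds of motif were in 33 (73.3%), against 9.75%. Only with the 250 bases before the start counted, the share with a hexamer was 55.6%, against 21.5%. The 31 DNA replication genes with a promoter held a hexamer in 35.5% of cases, CCAAT in 64.5% and both in 25.8%. For 60 other mitotic genes with a promoter these shares were 55%, 58.3% and 33.3%. A match is a run of letters, and no binding was measured.

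The first question was whether mitotic transcripts differ between the zones. Across both affinities, 45 of the 53 genes had a lower mean in LZ than in DZ cells (84.9%), against 51% of all tested genes. Their median log2 difference was -0.27, against -0.0038 over all tested genes. Within the matched sets the median was -0.34, -0.15 and -0.30. By limma with Benjamini-Hochberg adjustment over all 11206 genes, 3 of the 53 passed at an adjusted p below 0.05, all lower in LZ (0.187% of all tested genes were called lower). They were Ccnb2, Cdc20 and Cdca8. With the matched set as a replicate block 7 were called lower (0.5% of all tested genes), the additional genes being Aurka, Cenpa, Ube2c and Cenpf. None was called higher in either fit (0.232% of all tested genes without and 0.705% with the block).

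At an unadjusted p below 0.05, 15 genes were lower in LZ, against 2.95% of all tested genes, and 0 were higher, against 4.1%. When each LZ array was set against the DZ array of its own set and affinity, 14 of the 53 were lower in 6 of 6 pairs (26.4%, against 3.74% of all tested genes). All LZ arrays lay below all DZ arrays in Ccnb2 and Birc5 (0.455% of all tested genes). The lower values cannot be told apart between fewer mitotic cells in the sorted population and less of these RNAs per cell.

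**Figure D1:**
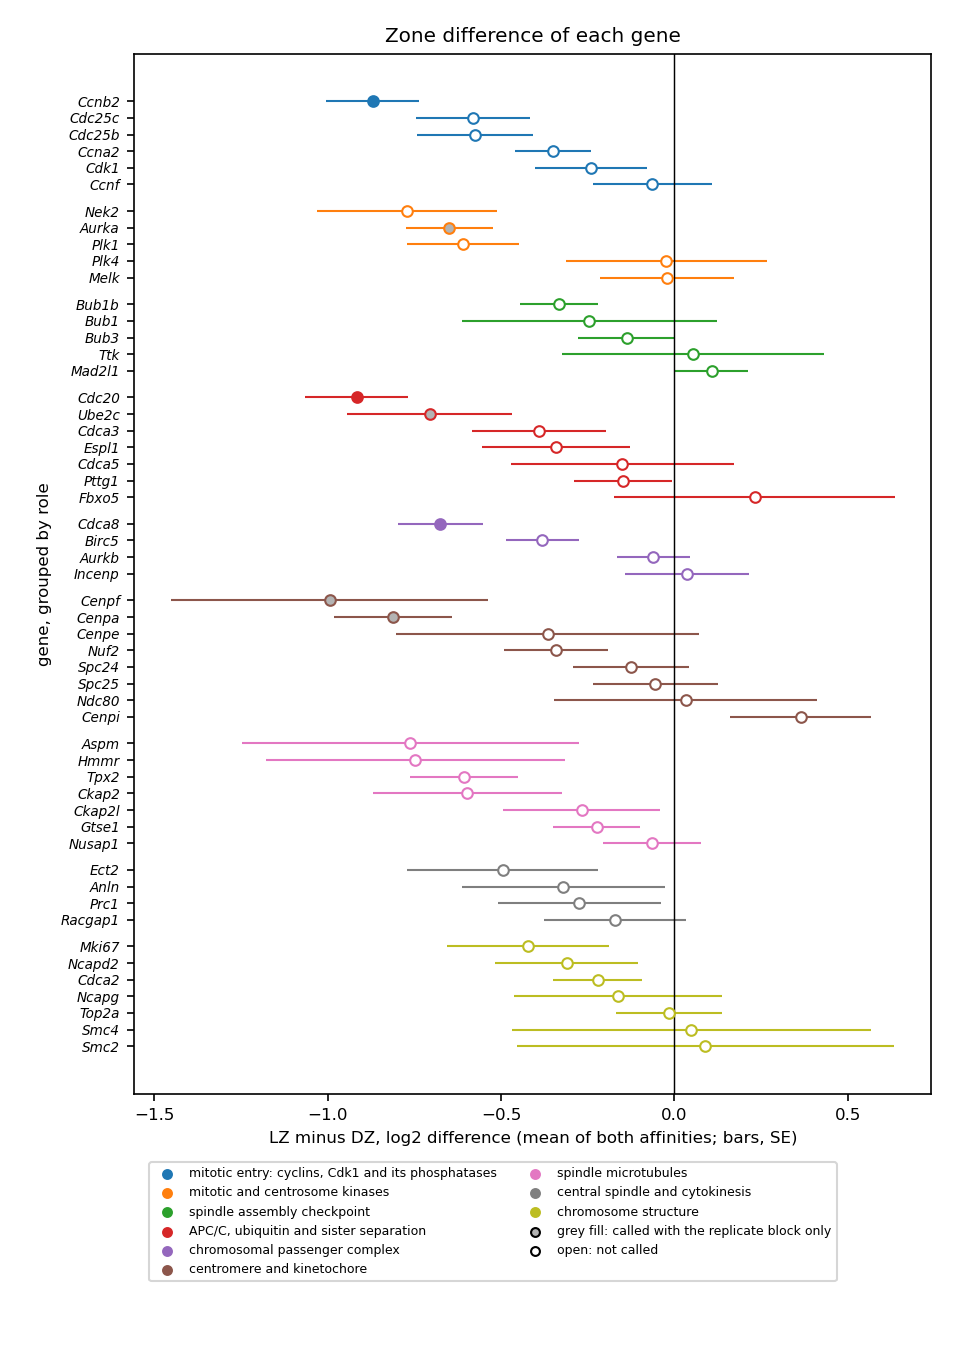
LZ minus DZ log2 difference of each of the 53 genes (x axis, mean of both affinities; bars, SE of the fit), grouped and coloured by role; filled points were called, grey-filled points were called only with the replicate block and open points were not called. The values run from -0.99 for Cenpf to 0.36 for Cenpi, and 45 of the 53 points lie left of 0.

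Among the genes of mitotic entry, all 6 had a negative difference, with a median of -0.46. Ccnb2, which encodes cyclin B2, an activating partner of Cdk1, read 10.91, 11.15 and 11.28 on the DZ high arrays, 11.07, 10.85 and 10.88 on DZ low, 10.28, 10.78 and 10.19 on LZ high and 9.67, 10.08 and 9.92 on LZ low. Every LZ array was below every DZ array, and the 3 LZ low arrays were the lowest of all 12. Its difference was -0.87 ± 0.13 (1.83-fold lower in LZ, limma adjusted p = 0.0234, 0.0124 with the replicate block), lower in 6 of 6 pairs. Cdc25c, a phosphatase that removes inhibitory phosphates from Cdk1, had group means of 7.79 ± 0.31 in DZ high, 8.11 ± 0.25 in DZ low, 7.43 ± 0.35 in LZ high and 7.31 ± 0.25 in LZ low (SD, n = 3). Its difference of -0.58 ± 0.16 did not pass (limma adjusted p = 0.252), and neither did that of its relative Cdc25b, -0.57 ± 0.17 (0.271). The differences of the remaining genes of this group were -0.35 for Ccna2 (cyclin A2), -0.24 for Cdk1 and -0.06 for Ccnf (cyclin F).

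The mitotic and centrosome kinases also had negative differences in 5 of 5 genes, with a median of -0.61. The values of 3 of them lay between -0.77 and -0.61, and those of the other two near 0. Aurka, the Aurora kinase of centrosomes and spindle poles, read 9.54, 9.72 and 9.76 on the DZ high arrays, 9.53, 8.98 and 9.21 on DZ low, 8.92, 9.05 and 9.28 on LZ high and 8.55, 8.70 and 8.35 on LZ low. The LZ low arrays were again the lowest, and the LZ high arrays of sets 2 and 3 were above the DZ low array of set 2. Its difference of -0.65 ± 0.12 missed the threshold (limma adjusted p = 0.0561) and passed with the replicate block (0.0472). Plk1, a kinase needed for centrosome maturation and mitotic exit, had -0.61 ± 0.16 (limma adjusted p = 0.205) and was lower in 6 of 6 pairs. Nek2, which acts in centrosome separation, had -0.77 ± 0.26. Plk4, the kinase of centriole duplication, and Melk both had a difference of -0.02.

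Of the spindle assembly checkpoint, 3 of 5 genes had a lower mean in LZ, with a median of -0.14 and none called. Bub1b, which encodes the checkpoint inhibitor BubR1, read 9.84, 10.19 and 10.08 on the DZ high arrays, 9.94, 9.63 and 10.10 on DZ low, 9.91, 9.94 and 10.03 on LZ high and 9.25, 9.44 and 9.23 on LZ low. Its 3 LZ low arrays were below all others while the LZ high arrays lay within the range of the DZ arrays. The difference was -0.33 ± 0.11 (limma adjusted p = 0.408). Mad2l1, whose product Mad2 binds Cdc20, had 0.11 ± 0.11 (0.999). The differences were -0.24 for Bub1, -0.14 for Bub3 and 0.05 for Ttk, which encodes the kinase Mps1.

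In the APC/C and sister separation group 6 of 7 genes were lower in LZ, with a median of -0.34. Cdc20, the activator of the APC/C that the checkpoint restrains, read 9.52, 9.77 and 9.95 on the DZ high arrays, 9.56, 9.20 and 9.63 on DZ low, 8.79, 9.43 and 9.02 on LZ high and 8.05, 8.54 and 8.32 on LZ low. The DZ low array of set 2 and the LZ high array of set 2 were the values that overlapped between the zones. Cdc20 fell by 0.92 ± 0.15 on the log2 scale (1.89-fold, limma adjusted p = 0.027, 0.0133 with the block), lower in 6 of 6 pairs. Ube2c, the ubiquitin-conjugating enzyme of the APC/C, read 8.08, 8.5 and 8.54 on the DZ high arrays, 8.02, 8.02 and 8.66 on DZ low, 7.21, 8.02 and 8.20 on LZ high and 6.70, 7.73 and 7.73 on LZ low. Its arrays differed more between sets than those of Cdc20, and the same value, 8.02, stands on 3 arrays. The difference of -0.71 ± 0.24 had a limma adjusted p of 0.408, and 0.0429 with the block. Cdca3, an adaptor of a ubiquitin ligase that acts on Wee1, had -0.39 ± 0.19, lower in 6 of 6 pairs and not called. Espl1 (separase) had -0.34, Cdca5 (sororin, a protector of cohesion) -0.15 and Pttg1 (securin) -0.15. Fbxo5, which encodes the APC/C inhibitor Emi1, was the member with a positive difference, 0.23 ± 0.40.

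Of the chromosomal passenger complex, which corrects wrong kinetochore attachments, 3 of 4 genes were lower in LZ and the median was -0.22. Cdca8, which encodes the subunit borealin, read 9.54, 9.79 and 9.91 on the DZ high arrays, 9.49, 9.38 and 9.73 on DZ low, 8.92, 9.46 and 9.26 on LZ high and 8.63, 8.75 and 8.79 on LZ low. The LZ low values were below all others, and the LZ high array of set 2 exceeded the DZ low array of that set. Cdca8 fell by 0.67 ± 0.12 on the log2 scale (1.6-fold, limma adjusted p = 0.0453, 0.0175 with the block). Birc5, the subunit survivin, had group means of 10.57 ± 0.12 in DZ high, 10.50 ± 0.17 in DZ low, 10.29 ± 0.04 in LZ high and 10.02 ± 0.17 in LZ low (SD, n = 3). Its difference was -0.38 ± 0.10 (limma adjusted p = 0.23), lower in 6 of 6 pairs without overlap. The kinase of the complex, Aurkb, had -0.06 ± 0.11, and its scaffold Incenp 0.04 ± 0.18.

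Centromere and kinetochore genes spanned the widest range, with a median of -0.23 and 6 of 8 genes lower. Cenpa, the histone H3 variant that marks centromeres, read 8.96, 9.24 and 9.87 on the DZ high arrays, 9.27, 8.82 and 9.30 on DZ low, 8.48, 8.72 and 8.85 on LZ high and 7.98, 8.15 and 8.43 on LZ low. Every LZ low array was below every other array. The difference of -0.81 ± 0.17 passed with the replicate block (limma adjusted p = 0.0192) and not without it (0.0808). Cenpf, a large protein of the outer kinetochore, read 7.67, 8.94 and 7.0 on the DZ high arrays, 8.54, 8.6 and 7.50 on DZ low, 7.28, 8.51 and 6.4 on LZ high and 6.17, 7.83 and 6.12 on LZ low. The set 3 array was the lowest in each of the 4 groups, the zones overlapped, and the LZ array was lower in 6 of 6 pairs. The limma adjusted p of its difference, -0.99 ± 0.46, was 0.711 without and 0.0396 with the block. Cenpe, a kinetochore motor, had -0.37 ± 0.44. Of the Ndc80 complex, which binds microtubules, Nuf2 had -0.34, Spc24 -0.13, Spc25 -0.06 and Ndc80 0.03. Cenpi, a subunit of the inner kinetochore, had the highest difference of all 53, 0.36 ± 0.20 (limma adjusted p = 0.866); it was also the dimmest of them, and the same value stands on 4 of its arrays.

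Spindle microtubule genes were lower in 7 of 7 cases, with a median of -0.60 and none called. Tpx2, which activates Aurora A on spindle microtubules, had -0.61 ± 0.16 (limma adjusted p = 0.192) and was lower in 6 of 6 pairs. Aspm, a spindle pole protein, had -0.76 ± 0.49, Hmmr -0.75 ± 0.43 and Ckap2 -0.60 ± 0.27, each with a larger error. Ckap2l had -0.27, Gtse1 -0.22 and Nusap1, which bundles spindle microtubules, -0.06.

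The 4 genes of the central spindle and cytokinesis had a median of -0.30, and none was called. Ect2, the exchange factor that switches on RhoA at the division plane, had -0.50 ± 0.27, Anln (anillin) -0.32 ± 0.29, Prc1, a bundler of antiparallel microtubules, -0.27 ± 0.24 and Racgap1 -0.17 ± 0.20. Among the 7 genes of chromosome structure the median was -0.16 and none was called. Mki67, which encodes the proliferation antigen Ki-67, had -0.42 ± 0.23 (limma adjusted p = 0.862) and was lower in 6 of 6 pairs. Cdca2, which recruits a phosphatase to chromatin at mitotic exit, had -0.22 ± 0.13. The condensin subunits had -0.31 for Ncapd2, -0.16 for Ncapg, 0.05 for Smc4 and 0.09 for Smc2, and topoisomerase II alpha (Top2a) had -0.02.

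**Figure D2:**
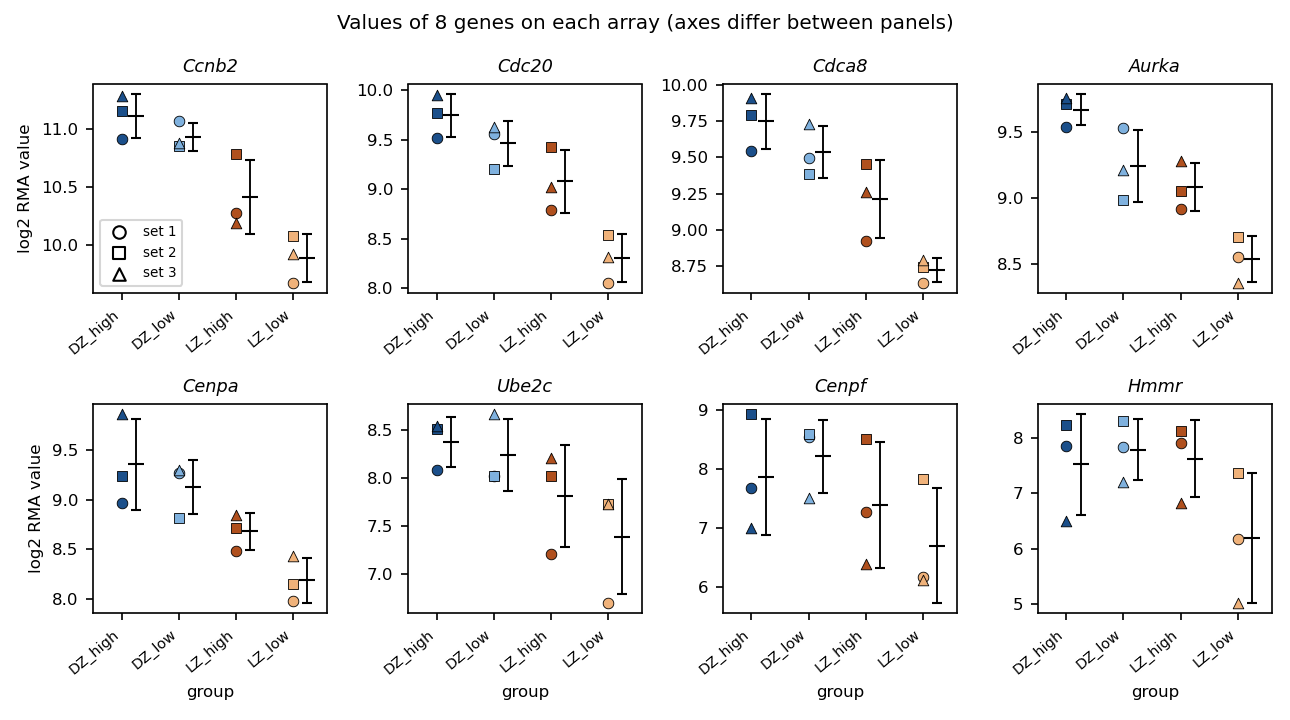
Log2 RMA values (y axis, scale differing between panels) of the 8 genes called in a zone comparison without or with the replicate block, by group (x axis); symbols give the matched set, and dashes with bars the mean and SD of 3 arrays. In Ccnb2 every LZ array is below every DZ array, while in Cenpf and Hmmr the 3 sets of a group lie far apart.

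The 3 calls rested on the full set of arrays. Leaving out 1 array at a time, Ccnb2 was lost in 9, Cdc20 in 8 and Cdca8 in 12 of 12 fits, with differences between -0.96 and -0.81 for Ccnb2, between -1.0 and -0.84 for Cdc20 and between -0.74 and -0.60 for Cdca8. Without matched set 3 the limma adjusted p was 0.0601, 0.0895 and 0.11. Cdc25b was then the only gene of the list called, and it was lower in LZ (0.268% of all tested genes were called lower).

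The zone difference was then taken at each affinity. At low affinity 51 of the 53 genes were lower in LZ (50.5% of all tested genes), with a median of -0.41 and set medians of -0.70, -0.21 and -0.39. At high affinity 36 were lower (51.1% of all tested genes), with a median of -0.15 and set medians of -0.02, -0.18 and -0.31. By limma, 0 of the 53 were called at either affinity (0.00892% of all tested genes were called lower at low affinity and 0% at high affinity); at an unadjusted p below 0.05, 16 were lower at low affinity (1.78% of all tested genes) and 8 at high affinity (1.92%). With the replicate block 1 was called at low affinity (0.0892% of all tested genes), and 0 at high affinity (0.0268%).

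The gene called at low affinity was Hmmr, a microtubule-binding protein of the spindle and a receptor for hyaluronan. Hmmr read 7.85, 8.23 and 6.5 on the DZ high arrays, 7.84, 8.31 and 7.21 on DZ low, 7.92, 8.13 and 6.83 on LZ high and 6.18, 7.38 and 5.03 on LZ low. In each set the LZ low array was the lowest of the 4 groups, and the LZ high arrays lay among the DZ arrays. Its zone difference at low affinity was -1.59 ± 0.61 (limma adjusted p = 0.876, 0.0394 with the block), and at high affinity 0.10 ± 0.61. Without set 3 the low affinity difference was -1.30 and was not called with the block (limma adjusted p = 0.14). It was -1.01 without the LZ low array of set 3 and -2.18 without that of set 2. The interaction of zone and affinity, which tests the difference between these values, was 1.69 ± 0.86 with a limma adjusted p of 1 in both fits. The zone differences at low and at high affinity were -1.04 and -0.69 for Ccnb2, -1.16 and -0.67 for Cdc20, and -1.25 and 0.06 for Ckap2, a microtubule-associated protein. Those of Plk1, -0.59 and -0.63, and of Tpx2, -0.61 and -0.60, were close to each other.

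The second question was whether affinity goes with these transcripts within a zone. In LZ cells, 51 of the 53 genes had a higher mean at high than at low affinity (49.7% of all tested genes), with a median log2 difference of 0.46 against -0.0021 over all tested genes. The set medians were 0.51, 0.41 and 0.37, and 37 genes were higher at high affinity in 3 of 3 sets (15.1% of all tested genes). The exceptions were Cdca5 (-0.15) and Gtse1 (-0.01). In DZ cells 32 were higher (50.4% of all tested genes), with a median of 0.08 and set medians of -0.08, 0.36 and -0.02. By limma, 0 of the 53 and 0 of all 11206 genes (0%) passed in LZ or in DZ, without or with the replicate block. At an unadjusted p below 0.05, 13 of the 53 were higher at high affinity in LZ (1.75% of all tested genes) and 2 in DZ (0.937%). With array weights 8 were called higher in LZ (0.464% of all tested genes), a fit whose weights are given in the closing section. The zone difference at low affinity and the affinity difference in LZ share the LZ low arrays and are not independent of each other.

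In 15 of the 53 genes all LZ low arrays lay below all LZ high arrays (28.3%, against 4.32% of all tested genes), and in 3 genes all DZ low arrays lay below all DZ high arrays (3.29%). In 8 genes (15.1%), namely Ccna2, Ccnb2, Aurka, Bub1b, Cdc20, Birc5, Cdca8 and Cenpa, the 3 LZ low arrays lay below all 9 other arrays. Among all tested genes this held for 52 (0.464%). These 8 were picked out after their values were seen.

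Cdc20 had an affinity difference of 0.78 ± 0.21 in LZ (limma adjusted p = 0.999, unadjusted 0.00336), with 0.28 in DZ. Bub1b had the smallest unadjusted p of the checkpoint genes, 0.00173, at 0.65 ± 0.16 in LZ and 0.14 in DZ. Ccna2, cyclin A2, read 10.13, 10.17 and 10.24 on the DZ high arrays, 10.00, 9.81 and 9.89 on DZ low, 9.81, 10.04 and 10.11 on LZ high and 9.17, 9.64 and 9.38 on LZ low. Its LZ low arrays were below all others, and the LZ high arrays lay within the range of the DZ arrays. The affinity difference was 0.59 ± 0.15 in LZ (limma adjusted p = 0.999) and 0.28 in DZ, and it was higher at high affinity in 6 of 6 pairs.

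Among the kinases the LZ difference was 0.55 ± 0.18 for Aurka and 0.58 ± 0.27 for Melk, beside 0.43 and 0.39 in DZ. In the APC/C group Cdca3 had 0.69 ± 0.27 in LZ, and in the passenger complex Cdca8 had 0.49 ± 0.17 and Incenp 0.56 ± 0.25. Of the kinetochore genes, Cenpi read 5.84, 5.84 and 5.60 on the DZ high arrays, 5.69, 5.84 and 6.20 on DZ low, 6.78, 5.87 and 7.24 on LZ high and 5.83, 5.63 and 5.84 on LZ low. The LZ high arrays of sets 1 and 3 stood above all others, and the rest ran from 5.60 to 6.20, where the array medians lay between 5.57 and 5.72. Its LZ difference was 0.86 ± 0.29, and that of Spc24 was 0.50 ± 0.24.

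The widest affinity differences in LZ were those of Hmmr, 1.43 ± 0.61, and Ckap2, 1.08 ± 0.39. Ckap2 read 8.13, 8.74 and 7.19 on the DZ high arrays, 8.39, 8.13 and 8.24 on DZ low, 7.99, 8.56 and 7.70 on LZ high and 7.11, 7.51 and 6.39 on LZ low. Within each set the LZ low array was the lowest. In DZ the differences of these genes had the other sign, -0.26 and -0.24. Nusap1 had 0.47 ± 0.20 in LZ. Ect2 had 0.46 ± 0.39, Racgap1 0.25 ± 0.29, Mki67 0.58 ± 0.33 and Cdca2 0.40 ± 0.18, none of them called. With 1 array left out, these ran from 0.17 (without LZ high of set 1) to 0.89 (without LZ high of set 3) for Ect2, from 0.021 (without LZ low of set 1) to 0.49 (without LZ low of set 3) for Racgap1, and from 0.22 (without LZ low of set 1) to 0.92 (without LZ low of set 2) for Mki67.

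**Figure D3:**
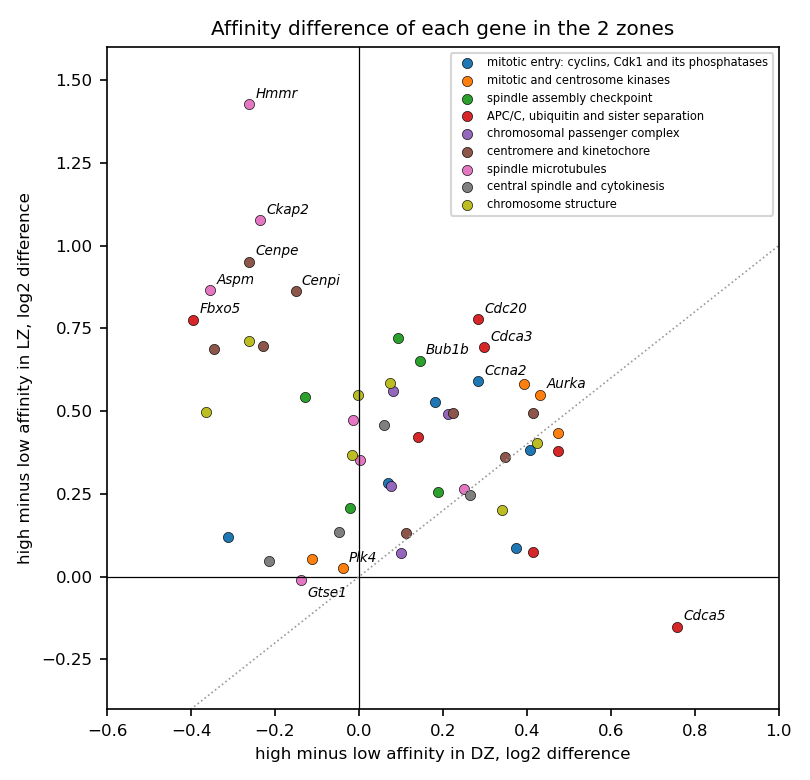
High minus low affinity log2 difference of each of the 53 genes in DZ (x axis) and in LZ (y axis), coloured by role, with a dotted line where both are equal; 14 genes are labelled. On the LZ axis 51 points are above 0, and on the DZ axis 32 are right of 0; no gene was called in either.

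Whether affinity differences were larger in LZ than in DZ was tested by the interaction. It was above 0 in 43 of the 53 genes (49.4% of all tested genes), with a median of 0.28 and set medians of 0.70, 0.08 and 0.23. By limma 0 genes were called without or with the block (0% of all tested genes), and 3 were above 0 at an unadjusted p below 0.05 (0.759%): Cenpi (1.01 ± 0.41), Bub1b (0.51 ± 0.23) and Ckap2 (1.31 ± 0.54). Averaged over both zones, 48 of the 53 were higher at high affinity (49.6% of all tested genes), with a median of 0.26, 0 called without or with the block and 13 at an unadjusted p below 0.05 (2.21%).

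The order of the 4 groups gives the same values in another form. LZ low had the lowest mean in 47 of the 53 genes, against 27.1% of all tested genes, and the highest mean in 0 (27.1% of all tested genes). DZ high had the highest mean in 29 (26.5% of all tested genes), DZ low in 12 (22%) and LZ high in 12 (24.5%). The exceptions to a lowest LZ low mean were Mad2l1, Fbxo5, Pttg1, Cdca5, Cenpi and Gtse1. Averaged over the 53 genes as deviations from each gene's mean, the level was 0.14, 0.46 and -0.0039 in DZ high, 0.26, 0.09 and -0.0053 in DZ low, 0.12, 0.28 and -0.21 in LZ high, and -0.47, -0.16 and -0.51 in LZ low. LZ low was the lowest group in each of the 3 sets, while the order of the other groups changed from set to set.

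**Figure D4:**
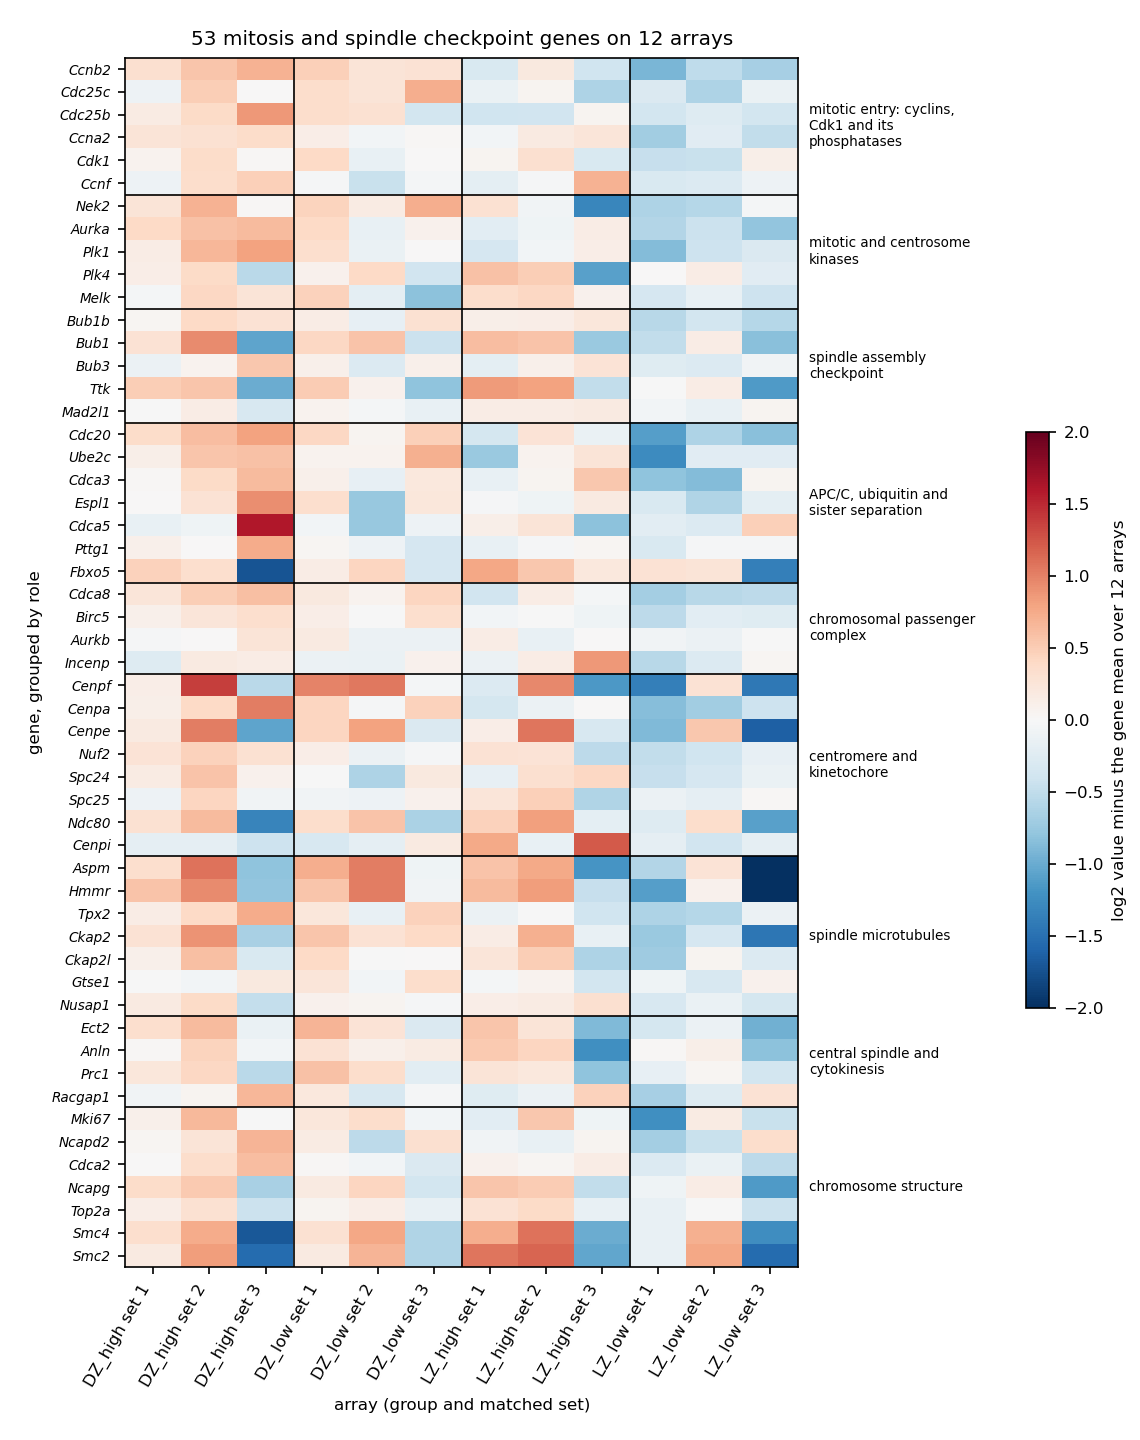
Log2 value of each of the 53 genes minus its mean over 12 arrays (colour, clipped at -2 and 2), with genes in rows grouped by role and arrays in columns by group and matched set. The LZ low columns are the lowest group in 47 of the 53 rows, and the set 3 columns are low within every group for 15 genes such as Smc2, Smc4 and Aspm.

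Other gene lists placed these values. Of 71 other mitotic genes tested, such as further kinetochore subunits, 41 were lower in LZ than in DZ, with a median of -0.05. None was called without the block, 7 were lower at an unadjusted p below 0.05, and 1 was called with the block, Psrc1, a spindle protein (-0.50 ± 0.24, limma adjusted p = 0.729 without and 0.0354 with the block). In LZ, 61 of these 71 were higher at high affinity, with a median of 0.28, and the DZ median was 0.10. Of 37 DNA replication genes, 15 were lower in LZ than in DZ, with a median of 0.04. At high affinity 33 of the 37 were higher in LZ (median 0.24) and 36 in DZ (median 0.36), none called. The difference between the lists was not tested.

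**Figure D5:**
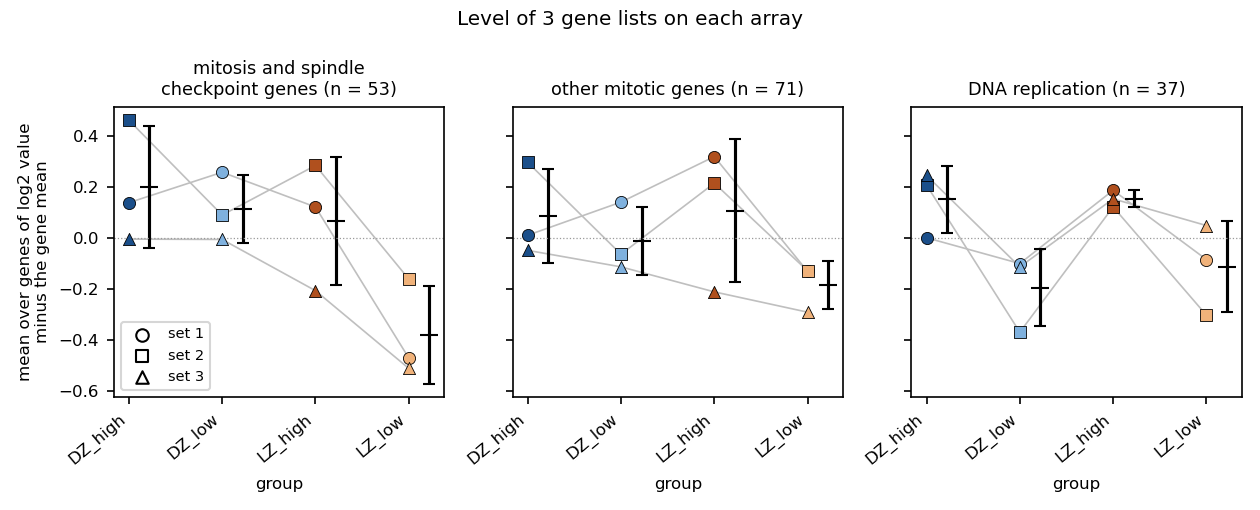
Mean over the genes of a list of the log2 value minus the gene mean (y axis) on each array, by group (x axis), for the 53 genes, 71 other mitotic genes and 37 DNA replication genes; symbols and grey lines give the matched set, dashes with bars the mean and SD of 3 arrays. For the 53 genes the LZ low arrays read -0.47, -0.16 and -0.51, the lowest group of each set.

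Matched set 3 stood apart for part of the list. In 15 of the 53 genes (28.3%, against 10.1% of all tested genes) the set 3 array was the lowest in all 4 groups. The difference of set 3 from the mean of sets 1 and 2 ran from -1.77 for Smc2 and -1.70 for Smc4 (condensin subunits), -1.57 for Aspm and -1.34 for Hmmr to 0.54 for Cdca3, with a median of -0.03. The median SE of the zone difference was 0.19 over the 53 genes and 0.15 with the block, against 0.16 and 0.13 over all tested genes. Without set 3 the median zone difference was -0.27 and the median affinity difference in LZ 0.50.

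Markers of other cells moved with some arrays. T cell markers (8 measured) averaged 4.87 to 5.26 in LZ high and 4.97 to 6.24 in LZ low, macrophage markers (10) 4.99 to 5.38 and 5.00 to 5.70, and granulocyte markers (9) 5.29 to 6.93 and 5.42 to 6.89. In DZ high and DZ low, the T cell markers averaged 5.18 to 5.2 and 4.97 to 5.58, the macrophage markers 5.2 to 5.34 and 5.05 to 5.19, and the granulocyte markers 5.39 to 7.05 and 5.54 to 6.42. All 8 tested granulocyte markers had a higher mean at high affinity in DZ (median 0.43), and 7 of the 8 a lower one in LZ (median -0.34). All 7 germinal centre B cell markers had a lower mean at high affinity in LZ (median -0.18), and 5 of the 7 in DZ (median -0.22), none of them called. The highest T cell and macrophage values were on the LZ low array of set 3, and without that array the median affinity difference of the 53 genes in LZ was 0.39. Plasma cell markers (7) averaged 7.51 to 7.66 in DZ high, 7.04 to 7.39 in DZ low, 7.03 to 7.46 in LZ high and 6.96 to 7.21 in LZ low. Of the 5 that were tested, 4 were lower and 1 was higher in LZ than in DZ, from -0.97 to 0.74. The lowest, Jchain, the joining chain of secreted antibody, was called (0.187% of all tested genes were called lower). At an unadjusted limma p below 0.05, 2 were lower (2.95% of all tested genes) and 1 was higher (4.1%). The part of these markers in the zone and affinity differences was not tested.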

How the data were processed

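The 12 arrays held total RNA from sorted germinal centre B cells, 3 arrays in each of 4 groups. The deposited values are log2 expression values per probe set. They were made with RMA, per the submitters' processing notes, which also name the build mm8; the software, its version and the normalization settings are not given in the sources used here. Base 2 was inferred from values that run from 1.99 to 13.74. The number of arrays limits the precision. Detection p-values and scanner files were not used here.

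A single gene symbol was given for 21789 of the 28853 probe sets, which gave 19938 genes (the brightest probe set where a gene had several). Testing was limited to the 11206 genes that reached the array median on 3 or more of the 12 arrays. Using R 4.3.3, group means over all 12 arrays were fitted by lmFit of limma 3.58.1, followed by two-sided eBayes tests, for 7 contrasts of zone and affinity, with Benjamini-Hochberg adjustment over all tested genes; genes with an adjusted p below 0.05 were called. The fit was tested on simulated data. The fit reported first has no replicate block. The block is the matched set, read from the code that ends each description. The code has the form of a calendar date and was taken as a shared day on that ground, although the labels do not say what it marks. As a check, deviations from the group means correlated above 0.1 in 17 of 18 pairs of arrays of the same set, not in every pair (the median was 0.41 and the lowest -0.07), and the best correlated array came from the same set for 11 of 12.

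The genes and all gene lists were chosen with earlier results of these data known. Each gene called in any contrast in either fit was described in full, with the 2 genes of the smallest p in each role group for the zone difference and for the affinity difference in LZ, and the genes with the lowest and highest zone difference; other genes are given by value or count. Alternatives were the replicate block, other filters (none, or percentile 75), a second quantile normalization, centring, eBayes with trend and robust, array weights, averaged probe sets, the compared groups alone, and leaving out set 3 or each array. Promoters are RefSeq windows on GRCm38.p6, matched by symbol and searched for exact letters with Python 3.11.15. Probe set coordinates were not used.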

Additional observations from a re-analysis of the deposited data

How the results depend on the processing

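Of 53 genes, 3 were called in the zone difference (0.187% of all tested genes were called lower). That count was 7 with the replicate block (0.5% of all tested genes), 5 with a second quantile normalization (0.321%) and 13 with array weights (1.42%). It was 2 with arrays centred on their median (0.107%) and 2 with eBayes trend and robust (0.187%), with Cdca8 lost in both. Without matched set 3 it was 1 (Cdc25b), both without (0.268%) and with the replicate block (0.259%). With 1 array left out at a time it was 0 to 3 (0.0357% to 0.223% of all tested genes). It was 0 without DZ high arrays 2 or 3, DZ low 1 or 3, LZ high 1 or any LZ low array (0.0357% to 0.107%). Without DZ low 2 it was 1 (Cdc20, 0.0982%). With array weights 2 genes were called lower in the zone difference at high affinity (0.651% of all tested genes) and 3 at low affinity (0.178%; 1 with the replicate block), and 8 were called higher in the affinity difference in LZ (0.464%) and 1 in that averaged over zones (0.17%). The array weights could not be fitted to their tolerance and ran from 0.213 (LZ high, set 3) to 9.15 (LZ high, set 2). The median zone difference stayed between -0.33 and -0.21 with 1 array left out. The median affinity difference in LZ, 0.46, was 0.57 with array weights and 0.33 to 0.50 with 1 array left out, the lowest without LZ high array 2; averaged over zones it was 0.36 with array weights. For single genes, 834 values under an alternative kept their side of the threshold and their direction. Most of these were genes called neither in the fit reported first nor under the alternative. Only the zone differences of Ccnb2, Cdc20 and Cdca8 had a call to lose, and all 37 lost calls were theirs. A call was gained in 23 values. Another 2 reversed, namely the zone difference of Mad2l1 without matched set 3, with and without the replicate block, at -0.018 in both. The cause of these changes was not tested. With 3 arrays a group, differences as small as the median SE of 0.19 cannot be resolved gene by gene. Larger ones were also missed. Without the block, Cdca8 at -0.67 was called, while Cenpf at -0.99, Cenpa at -0.81 and Ube2c at -0.71 were not. Dim genes such as Cenpi and brighter ones such as Pttg1 carry repeated values. An identical value stood on 2 or more arrays in 13.2% of the 53 genes and 22.8% of all tested genes.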

Other observations

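Among the 45 genes with a promoter, the 38 that held a CHR-type hexamer had a median zone difference of -0.33, and the 7 that did not had -0.06. The ranges overlapped, from -0.99 to 0.23 with a hexamer (34 of 38 lower in LZ) and from -0.77 to 0.36 without (5 of 7). The 24 with at least 2 CCAAT boxes had a median of -0.41 (from -0.99 to 0.23), and the 21 with 0 or 1 had -0.17 (from -0.61 to 0.36). In 32 of the 45 the hexamer began between 30 bases before and 50 after the start, and in 13 it was found only after the start. These medians are descriptions of the list, and no test was made of them.

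Ndc80, Smc4 and Top2a were the genes whose zone difference was above 0 at high affinity and below 0 at low affinity in all 3 matched sets, with 0.50 and -0.43 for Ndc80, 0.48 and -0.38 for Smc4, and 0.18 and -0.21 for Top2a. The interaction had a limma adjusted p of 1 for each, without and with the replicate block.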
